A study of Xenopus laevis with 6 samples.

Results

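The genes described here encode the nuclear subunits of the mitochondrial respiratory chain and of ATP synthase in the frog *Xenopus laevis*. They were taken by name, as every gene whose symbol, in lower case and without the suffix .L or .S, starts with nduf, uqcr or atp5, with sdh followed by a to d, or with cox followed by 4 to 8. The rule found 61 of 9271 genes with a single-symbol probe set on the array, represented by 101 probe sets. In RefSeq's annotation of Xenopus_laevis_v10.1 there are 83 gene names that match the rule, of which 61 were measured here. By complex, 24 genes belong to complex I, 3 to complex II, 6 to complex III, 12 to complex IV and 12 to complex V. The remaining 4 are no subunits of a finished complex: *ndufaf2*, *ndufaf4* and *ndufaf7* are assembly factors of complex I, and *atp5if1* encodes the inhibitor of ATP synthase. The gene *ndufa4*, named for complex I, was counted with complex IV, where its protein is now placed.

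The leptin group was 3 juvenile frogs, numbered 4 to 6, that received recombinant *Xenopus* leptin (rxLeptin, 20 ng/g BW) into the brain ventricles. The saline group was 3 juvenile frogs, numbered 1 to 3, that received 0.6% saline by the same route. The labels give the weight as 0.8 g on average and name neither strain nor sex. Preoptic area, hypothalamus and pituitary were dissected as 1 block 2 h later, and RNA of each frog was read on 1 Affymetrix array. Brain and gland are thus mixed in every sample. The p-values rest on the spread between frogs of the same group, moderated by limma over everything fitted.

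Complex I oxidises NADH and complex II oxidises succinate, and both pass electrons to ubiquinone. Complex III hands them on to cytochrome c and complex IV to oxygen, while complexes I, III and IV pump protons across the inner membrane and complex V, the ATP synthase, lets them flow back to make ATP. Neurons depend on this chain for the ATP that ion pumping and synaptic transmission consume, and skeletal muscle is another tissue rich in it. A few subunits are encoded in mitochondrial DNA and are not among the genes here, and the others are made from nuclear genes and imported. The genome of *X. laevis* is doubled, and many genes have an L copy and an S copy, named for the longer and the shorter chromosome of each pair of homeologs.

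All values are deposited log2 signals, so a difference of 1 is a doubling, and signals of different probe sets do not rank the abundance of their transcripts. The median signal per array lay between 7.36 and 7.46 over 32539 probe sets, and arrays correlated at 0.983 to 0.995. The array of leptin frog 6 had a narrower spread of signals (SD over probe sets 2.33) than the other 5 (2.39 to 2.41). The 9 measured neuron markers averaged 11.41 to 11.56 in leptin frogs and 11.26 to 11.42 in saline frogs, and pituitary transcripts were bright in 5 of 6 blocks. The mean over 9 pituitary markers was 11.24, 11.40 and 11.22 in leptin frogs 4, 5 and 6, and 7.06, 10.73 and 11.65 in saline frogs 1, 2 and 3, so saline frog 1 was low. The mean over 12 skeletal muscle markers was 6.32, 6.20 and 6.36 in the leptin frogs and 6.73, 6.26 and 8.50 in the saline frogs, so saline frog 3 carried muscle transcripts. In that frog 10 of the 12 muscle markers had their highest value of the 6 frogs, and so did 7 of the 9 pituitary markers.

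Respiratory chain probe sets were bright, and most lay slightly lower in leptin than in saline frogs. Of 61 genes, 48 had a difference below 0 and 13 above 0, where 55.1% of all 9271 genes lay below 0 and 44.9% above. The median difference, leptin minus saline, was -0.063 over the 61 genes, which is 0.957-fold, and -0.018 over all genes. Single genes ran from -0.41 for *cox5b.2* to 0.11 for *sdhb*. In bulk tissue fewer cells of a type and less RNA per cell cannot be told apart, and this holds for every difference below.

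No gene of the chain passed the test. With limma over all 9271 genes, 0 of 61 reached an adjusted p of 0.05, where 0% of all genes did, and their adjusted p-values lay between 0.809 and 0.991. At an unadjusted p under 0.05 there was 1 gene below 0, *uqcrq*, and 0 above, against 4.03% and 1.75% of all genes. The leptin frogs lay entirely below the saline frogs for 11 genes, where 9.85% of all genes did, and entirely above for 1, *ndufs1*, where 4.51% did. Among genes with a probe set in the brighter 50%, 12.5% lay entirely below and 4.58% entirely above. With array median centring, 2 of the 61 lay entirely below and with quantile normalization 4, where 7.93% and 8.37% of all genes did. Averaging the probe sets of each gene gave 15 of 61, where 9.47% of all genes lay entirely below. With L and S copies kept apart, 21 of 84 entries did, against 9.91% of all such entries. Leaving out 1 frog eases this criterion for every gene. The number entirely below, with the share of all genes in parentheses, was 11 (15%) without leptin frog 4, 13 (14.2%) without leptin frog 5 and 22 (15%) without leptin frog 6. It was 18 (14.8%) without saline frog 1, 18 (19.7%) without saline frog 2 and 11 (15.4%) without saline frog 3.

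**Figure D1:**
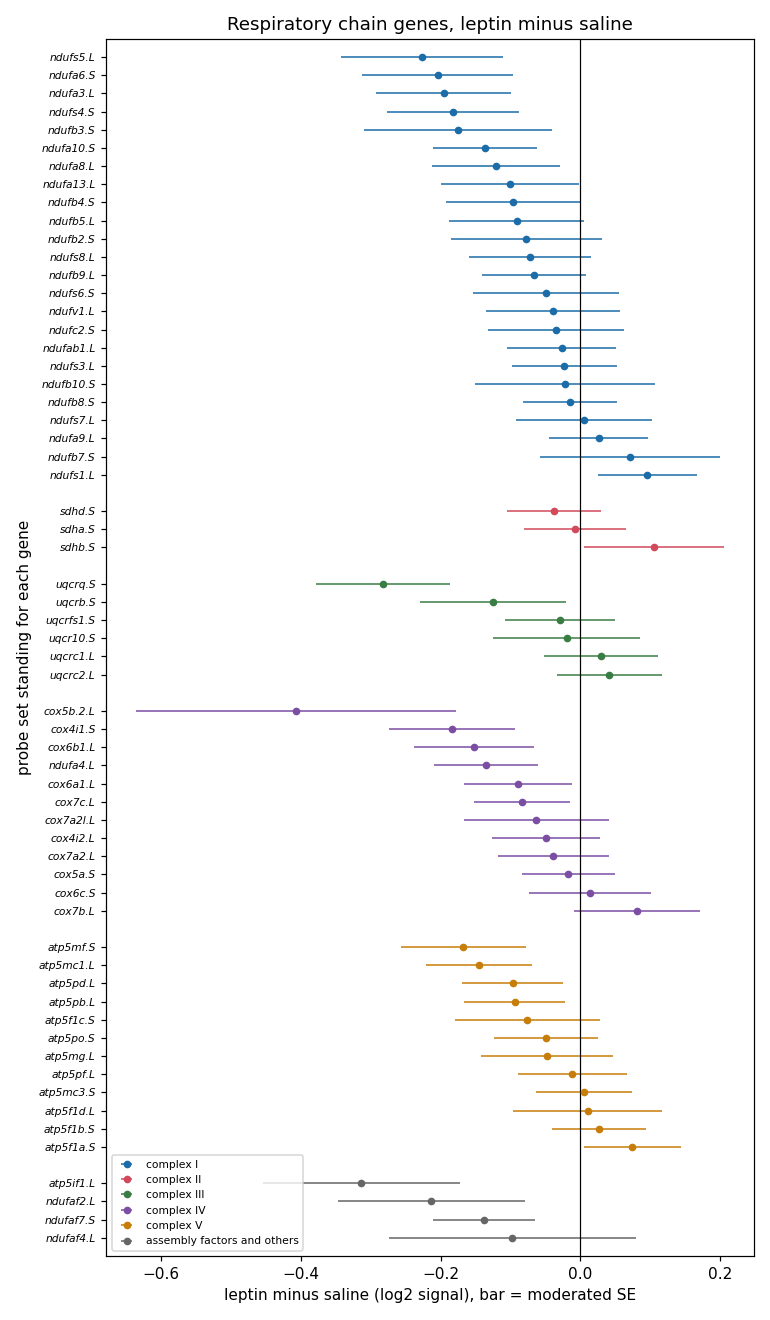
Difference between leptin and saline frogs (log2 signal, leptin minus saline) for the probe set that stands for each of 61 respiratory chain genes, coloured by complex, with bars for limma's moderated standard error. Most points lie between -0.2 and 0.1, *cox5b.2.L* lies lowest at -0.41 with the widest bar, and *sdhb.S* highest at 0.11.

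The balance below 0 was not seen when saline frog 3 alone was left out. Saline frog 3, the frog with muscle transcripts, had the highest value of the 6 frogs for 50 of 61 respiratory chain genes and the lowest for 0. Over all genes it was highest for 28.5% and lowest for 18.4%. The lowest value was in leptin frog 4 for 24 of the 61 genes and in saline frog 1 for 21. Over the 9210 other genes these shares were 14.5% and 15.4%. The mean over the 61 genes was 11.57, 11.59 and 11.64 in leptin frogs 4, 5 and 6, and 11.59, 11.63 and 11.80 in saline frogs 1, 2 and 3. Saline frogs 1 and 2 thus lay within the range of the leptin frogs, and saline frog 3 stood above all 5 others. Its signal exceeded the mean of the other 5 frogs by a median of 0.19 over the respiratory chain genes and of 0.033 over all genes.

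Without saline frog 3, 34 of 61 genes had a difference above 0 and 27 below, and the median was 0.011, while all genes had a median of -0.015 with 45.4% above 0. Without saline frog 1, the block low in pituitary transcripts, 55 of 61 lay below 0 with a median of -0.11, and without leptin frog 6, the array with the narrower spread, 50 did with a median of -0.093. With the mean of 4 muscle genes as a covariate, 38 of 61 lay above 0 (median 0.030), where 47.5% of all genes did. That covariate was 9.87 in saline frog 3 and 6.11 to 7.06 in the other frogs. The fit thus largely repeats leaving out saline frog 3 and is no separate result. None of the 61 passed an adjusted p of 0.05 in any of these fits. With saline frogs 1 and 3 both left out, which leaves 1 saline frog, 42 of 61 genes lay below 0. Their median was then -0.016, and 51.1% of all genes lay below 0. The part that muscle tissue has in the levels of saline frog 3 was not tested.

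**Figure D2:**
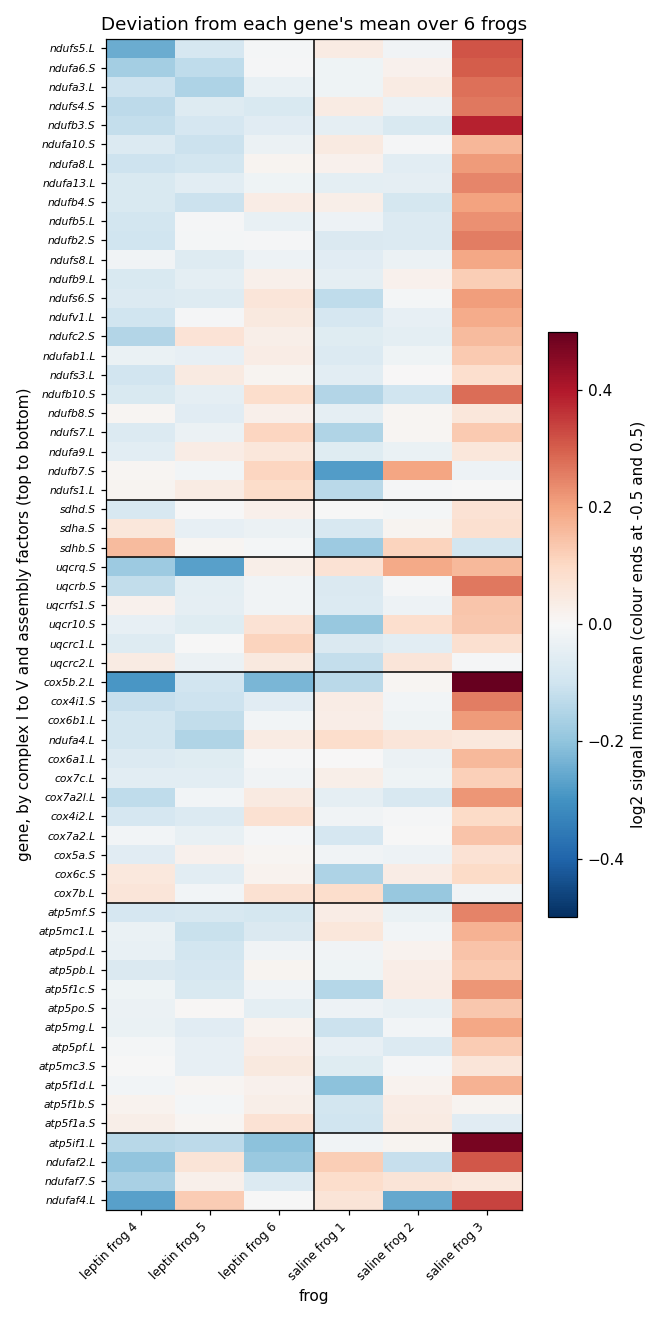
Deviation of each frog from the gene's mean over 6 frogs (log2 signal) for 61 respiratory chain genes, leptin frogs 4 to 6 left of saline frogs 1 to 3, with lines between complexes. The column of saline frog 3 is red for most genes, being the highest of the 6 in 50 of 61.

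**Figure D3:**
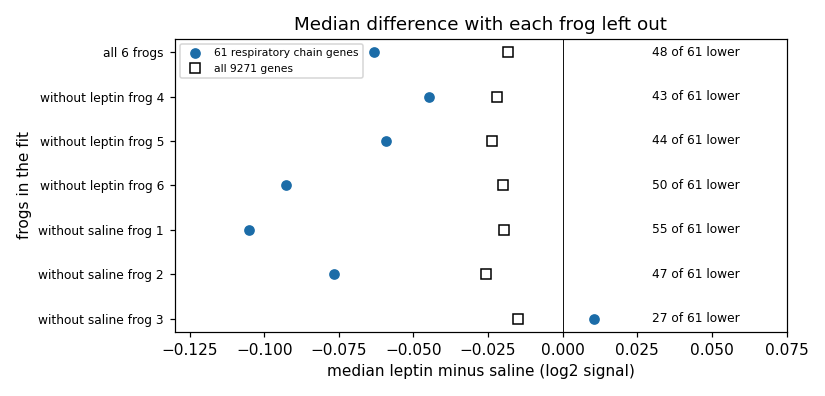
Median difference, leptin minus saline (log2 signal), with all 6 frogs and with each frog left out, for the respiratory chain genes (filled circles) and for all genes (open squares), with the number of respiratory chain genes below 0 beside each. The median of the respiratory chain genes lies below that of all genes in each fit except the one without saline frog 3, where it is 0.011.

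The genes that stood highest in saline frog 3 against the mean of the other 5 frogs were chosen after their values were seen. They were *cox5b.2*, for a zinc-binding subunit of complex IV, at 9.43 against 8.54, *atp5if1* at 10.60 against 10.03, and *ndufb3*, for a small membrane-arm subunit of complex I, at 10.85 against 10.39. Saline frog 3 was above that mean for 55 of the 61 genes, and the exceptions included *sdhb* at 10.80 against 10.91 and *atp5f1a* at 12.86 against 12.92.

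In complex I, the NADH dehydrogenase, 20 of 24 genes lay below 0, with a median difference of -0.069, and the median was 0.0090 without saline frog 3. The genes with the smallest p all encode supernumerary subunits, which surround the catalytic core. *ndufa3.L* was at 11.12, 11.07 and 11.18 in leptin frogs 4, 5 and 6, against 11.20, 11.26 and 11.50 in saline frogs 1, 2 and 3, a difference of -0.20 (SE 0.097). *ndufs5.L* was at 11.59, 11.76 and 11.83 in the leptin frogs and 11.88, 11.82 and 12.16 in the saline frogs, a difference of -0.23 (SE 0.12). For *ndufa3* the leptin frogs lay below all saline frogs by a narrow margin, for *ndufs5* leptin frog 6 lay above saline frog 2, and in both saline frog 3 was the highest. *ndufs4.S*, whose loss in people causes Leigh syndrome, was at 10.59, 10.65 and 10.64 in the leptin frogs and 10.76, 10.69 and 10.98 in the saline frogs, a difference of -0.18 (SE 0.094) without overlap. *ndufa6.S*, which binds the acyl carrier protein of the complex, had a difference of -0.20 (SE 0.11) with overlapping groups. These 4 differences were smaller in size without saline frog 3, at -0.11 for *ndufa3*, -0.13 for *ndufs5*, -0.095 for *ndufs4* and -0.10 for *ndufa6*. Among the extremes of signal, *ndufb5.L* was at 12.54 ± 0.044 in leptin frogs and 12.64 ± 0.16 in saline frogs (SD, n = 3 each) and *ndufb7.S* at 8.79 ± 0.065 in leptin frogs and 8.72 ± 0.24 in saline frogs (SD, n = 3 each), and both pairs of groups overlapped.

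The 5 measured core subunits of complex I are a grouping made after the values were seen. They belong to the catalytic core, which as a whole holds the flavin and the iron-sulfur clusters that conduct electrons. *ndufs1.L*, the largest of these subunits, was at 10.77, 10.80 and 10.85 in the leptin frogs and 10.62, 10.75 and 10.76 in the saline frogs. The leptin frogs were above all saline frogs, though by less than the spread within a group, with a difference of 0.096 (SE 0.071). A second, dimmer *ndufs1.L* probe set had overlapping groups, with leptin frog 4 the lowest of all frogs at 7.45. Its difference in the fit over all probe sets was 0.20 (SE 0.36). The other core subunits were closer to 0. *ndufv1.L*, the subunit that oxidises NADH, was at -0.039 (SE 0.096) and *ndufs8.L* at -0.072 (SE 0.087). *ndufs3.L* was at -0.023 (SE 0.075) and *ndufs7.L* at 0.0053 (SE 0.098). The core had a median of -0.023 and the 19 supernumerary subunits one of -0.091, with 17 of 19 below 0. These medians were 0.044 and -0.0037 without saline frog 3. The difference between core and supernumerary subunits was not tested.

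Complex II, succinate dehydrogenase, also a citric acid cycle enzyme, showed no common direction. *sdhb.S*, the iron-sulfur subunit, was at 11.05, 10.90 and 10.88 in the leptin frogs and 10.71, 11.003 and 10.80 in the saline frogs, a difference of 0.11 (SE 0.10), and leptin frogs 5 and 6 lay between the saline frogs. *sdha.S*, the flavoprotein, differed by -0.0075 (SE 0.074) with means of 11.81 ± 0.053 in leptin frogs and 11.82 ± 0.080 in saline frogs (SD, n = 3 each). *sdhd.S*, a membrane anchor, differed by -0.038 (SE 0.067), with means of 11.53 ± 0.055 in leptin frogs and 11.57 ± 0.045 in saline frogs (SD, n = 3 each). All of these differences were within about 1 SE of 0.

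In complex III, the cytochrome bc1 complex, 4 of 6 genes lay below 0, with a median difference of -0.024, and the median was 0.038 without saline frog 3. The small subunit *uqcrq.S* had the smallest p of the chain in the fit over genes. It was at 11.49, 11.39 and 11.69 in leptin frogs 4, 5 and 6, against 11.74, 11.86 and 11.83 in saline frogs 1, 2 and 3. All leptin frogs lay below all saline frogs, with leptin frog 6 only just below saline frog 1. The difference was -0.28 (SE 0.096), which is 0.822-fold, with a limma p of 0.0252 (adjusted p = 0.809 over all genes). Without saline frog 3 it was -0.27 (SE 0.11), close to the value over 6 frogs. The small subunit *uqcrb.S* differed by -0.12 (SE 0.10), and by -0.023 without saline frog 3. The core proteins *uqcrc1.L* and *uqcrc2.L*, which face the matrix, differed by 0.030 (SE 0.081) and 0.042 (SE 0.075), and by 0.078 and 0.049 without that frog. The groups overlapped for each of these 3 genes.

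The probe sets of *uqcrfs1* did not give 1 answer. This gene encodes the Rieske iron-sulfur protein, which takes electrons from ubiquinol and passes them to cytochrome c1, and it had 4 probe sets, 2 for each copy, given here from the fit over all probe sets. The brightest, which stands for the gene here, is a *uqcrfs1.S* probe set of the type with the suffix s_at, whose probes match more than 1 related transcript. It was at 12.17, 12.10 and 12.13 in leptin frogs 4, 5 and 6, against 12.08, 12.12 and 12.29 in saline frogs 1, 2 and 3, a difference of -0.029 (SE 0.086). The second *uqcrfs1.S* probe set was at 9.18, 9.64 and 9.26 in the leptin frogs and 9.96, 9.95 and 10.02 in the saline frogs. All leptin frogs lay well below all saline frogs, which agreed closely with one another. The difference was -0.62 (SE 0.13), or 0.653-fold, with a limma p of 0.00273 that ranked 57 of 32539 probe sets (adjusted p = 0.906 over all probe sets). With each frog left out in turn the difference lay between -0.75 and -0.53, and it was -0.60 without saline frog 3.

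The L copy had a bright and a dim probe set, again with different results. The bright *uqcrfs1.L* probe set was at 10.98, 10.93 and 10.94 in the leptin frogs and 11.10, 11.11 and 11.19 in the saline frogs, a difference of -0.18 (SE 0.073) without overlap, and of -0.15 without saline frog 3. The dim one was at 6.46, 6.45 and 6.63 in the leptin frogs and 6.18, 6.44 and 6.43 in the saline frogs, a difference of 0.16 (SE 0.11), with no overlap and the leptin frogs higher by a narrow margin. The *uqcrfs1* probe sets thus held differences from -0.62 to 0.16, none of which passed an adjusted p of 0.05, and which part of the transcripts each probe set reads was not tested.

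In complex IV, cytochrome c oxidase, 10 of 12 genes lay below 0, with a median difference of -0.073, and the median was -0.022 without saline frog 3. *ndufa4.L*, the brightest probe set of the complex, was at 13.23, 13.17 and 13.36 in the leptin frogs and 13.41, 13.38 and 13.37 in the saline frogs, a difference of -0.13 (SE 0.074) without overlap. Its saline frogs lay close together, so saline frog 3 did not stand out, and the difference without that frog was -0.14 (SE 0.083). *cox4i1.S*, the regulatory subunit that binds ATP, was at 11.13, 11.13 and 11.18 in the leptin frogs and 11.27, 11.22 and 11.49 in the saline frogs. Its difference was -0.18 (SE 0.090) without overlap, and -0.10 (SE 0.065) without saline frog 3. *cox5b.2.L* was at 8.40, 8.60 and 8.46 in the leptin frogs and 8.56, 8.70 and 9.43 in the saline frogs, where saline frog 3 stood apart. Its difference of -0.41 (SE 0.23) was the largest in size among the 61 genes, and it was -0.14 (SE 0.094) without that frog.

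Other named genes of complex IV had overlapping groups for the probe set that stands for each. *cox6b1.L*, which faces the intermembrane space, differed by -0.15 (SE 0.086) with overlapping groups, and by -0.082 without saline frog 3. *cox4i2.L*, the alternative form of subunit 4 that mammals use in lung and in low oxygen, was at 12.99 ± 0.089 in leptin frogs and 13.04 ± 0.062 in saline frogs (SD, n = 3 each), a difference of -0.049 (SE 0.077). *cox7a2l.L*, a factor that joins complexes III and IV into supercomplexes, had the dimmest probe set of the complex, at 8.61 ± 0.086 in leptin frogs and 8.67 ± 0.16 in saline frogs (SD, n = 3 each). The muscle forms *cox6a2*, *cox7a1* and *cox8b* had no single-symbol probe set under these names, so they could not be described.

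In complex V, 8 of 12 genes lay below 0, with a median difference of -0.048, and the median was 0.025 without saline frog 3. *atp5mc1.L*, which encodes a subunit of the proton-driven c ring, was at 12.59, 12.51 and 12.55 in the leptin frogs and 12.68, 12.61 and 12.80 in the saline frogs, a difference of -0.14 (SE 0.076) without overlap. *atp5mf.S*, a subunit of the membrane part, was at 12.56, 12.56 and 12.56 in the leptin frogs and 12.68, 12.61 and 12.89 in the saline frogs, a difference of -0.17 (SE 0.089) without overlap. In both, saline frog 3 was the highest and saline frog 2 lay close to the leptin frogs. Of the peripheral stalk, *atp5pd.L* differed by -0.097 (SE 0.073) and *atp5pb.L* by -0.094 (SE 0.073). These 4 differences were -0.094, -0.086, -0.049 and -0.053 without saline frog 3.

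The F1 head, which holds the catalytic sites, was set beside the rest of the enzyme in a grouping made after the values were seen. *atp5f1b.S*, the catalytic beta subunit and the brightest probe set of the complex, was at 13.71, 13.69 and 13.73 in the leptin frogs and 13.61, 13.73 and 13.71 in the saline frogs, a difference of 0.027 (SE 0.067). *atp5f1a.S*, the alpha subunit, differed by 0.075 (SE 0.069), *atp5f1d.L*, the delta subunit, by 0.011 (SE 0.11), and *atp5f1c.S*, the rotating gamma subunit, by -0.076 (SE 0.10). The median was 0.019 for the 4 genes of the head, -0.072 for the 4 of the peripheral stalk and -0.096 for the 4 of the membrane part. The medians were 0.052, -0.022 and -0.025 without saline frog 3. The differences between these parts were not tested.

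The 4 genes that are not subunits all lay below 0, with a median difference of -0.18, and of -0.13 without saline frog 3. *atp5if1.L*, whose protein stops ATP synthase from running in reverse, was at 9.99, 9.995 and 9.92 in the leptin frogs and 10.11, 10.14 and 10.60 in the saline frogs. The leptin frogs lay below all saline frogs, and saline frog 3 stood apart. The difference was -0.31 (SE 0.14), and -0.15 (SE 0.066) without that frog. *ndufaf7.S*, a methyltransferase that acts on a core subunit of complex I, was at 8.31, 8.49 and 8.40 in the leptin frogs and 8.56, 8.54 and 8.52 in the saline frogs, a difference of -0.14 (SE 0.073) without overlap. In the fit over all probe sets, *ndufaf2.L* had a probe set at -0.21 (SE 0.14), which stands for the gene, and a dimmer one at -0.43 (SE 0.14). The groups overlapped for the probe set that stands for the gene and did not for the dimmer one. Without saline frog 3 these differences were -0.11 and -0.32.

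**Figure D4:**
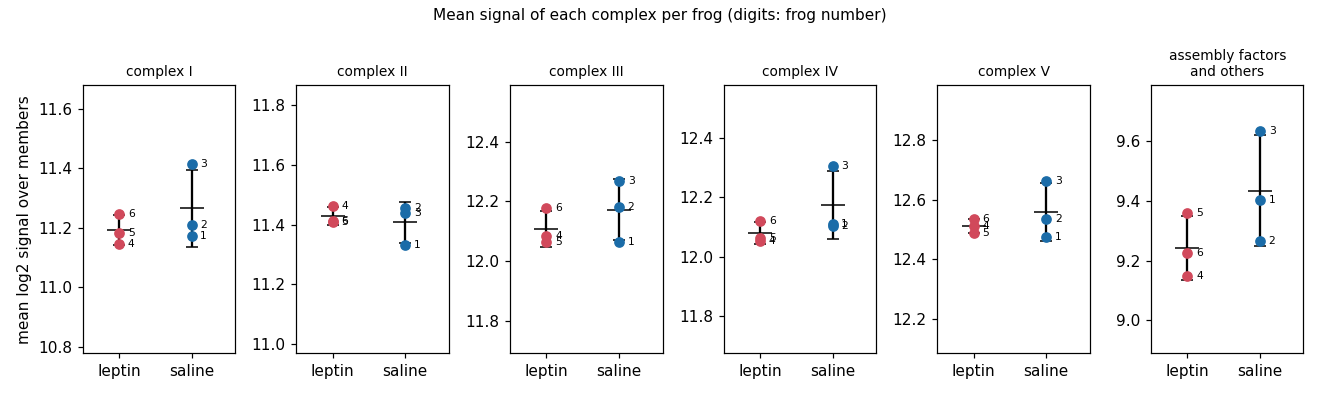
Mean log2 signal over the genes of each complex per frog (points with the frog's number), leptin left of saline, with the group mean and SD (n = 3 frogs each) and axes of equal span. Saline frog 3 is the highest of the 6 frogs in every panel except complex II, where leptin frog 4 is highest at 11.46.

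Both copies were measured for 23 genes, each taken as its brightest probe set, in the fit over probe sets. Both lay below 0 in 18 pairs, both above in 1 (*atp5f1a*) and on opposite sides in 4 (*ndufb7*, *ndufs3*, *ndufs7* and *uqcrc2*). The median difference was -0.079 for L copies and -0.078 for S copies, and the median gap between the copies of a gene was 0.049. The copies share the frogs, and sequence similarity can let a probe set read both, so they are no replicates. The largest gap was in *ndufs7*, the core subunit next to the ubiquinone site. *ndufs7.S* was at 10.23, 10.42 and 10.36 in the leptin frogs and 10.64, 10.44 and 10.65 in the saline frogs, a difference of -0.24 (SE 0.097) without overlap, and *ndufs7.L* had 0.0053 (SE 0.10). *atp5pf*, of the peripheral stalk, had -0.21 (SE 0.080) for the S copy and -0.011 (SE 0.085) for the L copy. *cox7c*, a small subunit of complex IV, had -0.23 (SE 0.095) and -0.083 (SE 0.076). In S copies without saline frog 3 the difference was -0.20 for *ndufs7*, -0.16 for *atp5pf* and -0.16 for *cox7c*. These 3 genes were picked with their values known, and no test of a gap between copies was made.

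**Figure D5:**
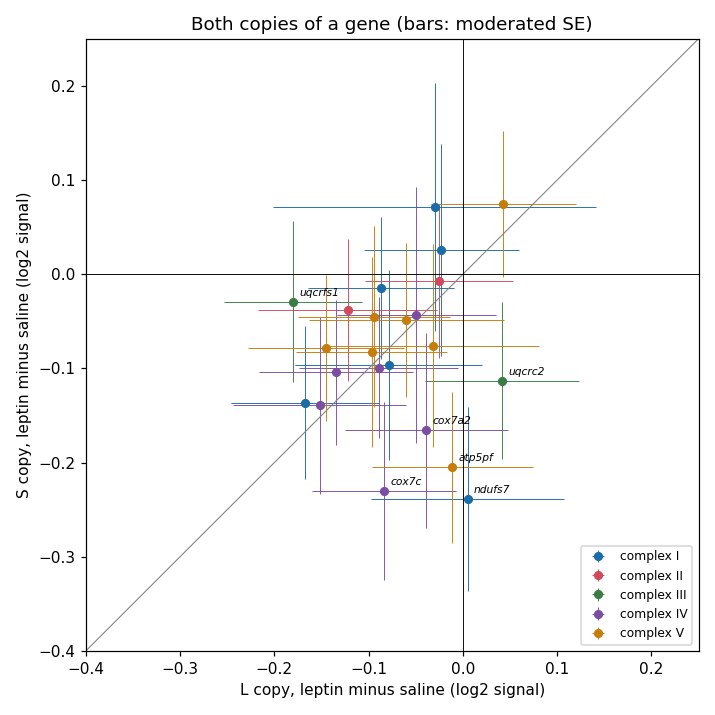
Difference between leptin and saline frogs (log2 signal) of the L copy (x axis) and the S copy (y axis) of 23 respiratory chain genes, with moderated standard errors, coloured by complex, and a grey line where the copies are equal. Most pairs lie below 0 on both axes, and *ndufs7*, *atp5pf*, *cox7c*, *cox7a2*, *uqcrc2* and *uqcrfs1* lie farthest from the line.

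Over all 101 probe sets of these genes, 82 lay below 0 and 19 above, where 47.6% of all probe sets lay below. Most of the 101 were bright, and among genes with a probe set in the brighter 50%, 60.3% lay below 0. Of the 101 probe sets, 8 lay below 0 and 0 above at an unadjusted p under 0.05, against 2.68% and 2.03% of all probe sets. These 8 belonged to *uqcrfs1.S*, *uqcrfs1.L*, *uqcrq.S*, *ndufaf2.L*, *ndufs7.S*, *atp5pf.S*, *cox7c.S* and *cox7b.L*. The *cox7b.L* probe set was the dimmer of that copy, at -0.21 (SE 0.074). The bright *cox7b.L* probe set, which stands for the gene, lay the other way at 0.082 (SE 0.096). The groups did not overlap for 25 below (6.78% of all probe sets) and 2 above (5.15%). Among genes with a probe set in the brighter 50%, these shares were 12.5% and 4.58%. Without saline frog 3, 54 of the 101 probe sets lay below 0, where 49.7% of all probe sets did. In that fit 1 probe set lay below 0 at an unadjusted p under 0.05, *uqcrfs1.S*, against 1.96% of all probe sets. Another 1 lay above, against 2.08%, a dim *uqcr10.S* probe set at 0.39, chosen with the others of this count after its values were seen.

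Most of these genes also shared bright signal. Of the 61 genes, 52 (85.2%) lay in the brightest 20% of genes. Within that range 76.9% of the respiratory chain genes and 57.8% of the 1802 other genes lay below 0, with median differences of -0.048 and -0.024.

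Lists of other genes of energy metabolism were set beside the chain, and 0 of their members passed an adjusted p of 0.05 with limma over all genes. Among assembly factors outside the naming rule, 16 of 19 measured genes lay below 0, with a median difference of -0.12, and of -0.11 without saline frog 3. At an unadjusted p under 0.05 there were 3 below and 0 above, against 4.03% and 1.75% of all genes. *uqcc3.L*, needed to assemble complex III, was at 11.11, 10.99 and 11.08 in the leptin frogs and 11.41, 11.18 and 11.50 in the saline frogs, a difference of -0.30 (SE 0.10) without overlap. *higd2a.L*, a supercomplex factor, had a difference of -0.23 (SE 0.089) without overlap. Without saline frog 3 they were at -0.23 and -0.16. Among electron carriers, nucleotide carriers and porins, 11 of 18 lay below 0 (median -0.060, and -0.021 without saline frog 3). Of the 18, 3 lay below 0 at an unadjusted p under 0.05, where 4.03% of all genes did. The ubiquinone synthesis genes *coq6.L* and *coq4.L* had differences of -0.22 (SE 0.062) and -0.29 (SE 0.089), both without overlap, and of -0.21 and -0.27 without saline frog 3. Saline frog 3 was the highest frog for 11 of 19 assembly factors and 8 of 18 carriers.

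Of 19 genes of pyruvate dehydrogenase and the citric acid cycle, 11 lay below 0 (median -0.029, and 0.013 without saline frog 3), with *pdp1.L*, the phosphatase that activates pyruvate dehydrogenase, at -0.21 (SE 0.096) and *ogdh.L*, of the oxoglutarate dehydrogenase complex, at 0.15 (SE 0.071). Of 17 glycolysis genes, 7 lay below 0 (median 0.017, and 0.049 without saline frog 3). The muscle forms *pgam2.S* and *eno3.L* had the smallest p there, with -0.62 (SE 0.36) and -0.56 (SE 0.35), and were at -0.22 and -0.16 without saline frog 3. Saline frog 3 was the highest frog for 6 of 19 citric acid cycle genes and 5 of 17 glycolysis genes. Of 12 uncoupling and oxidant defence genes, 8 lay below 0 (median -0.064), and saline frog 3 was the highest for 8. Without that frog 6 lay below 0 (median 0.0035). The peroxiredoxins *prdx3.L* and *prdx1.S* had the smallest p of this list, at -0.18 (SE 0.11) and -0.14 (SE 0.097), and were at -0.11 and -0.048 without saline frog 3.

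Of 13 measured regulators of mitochondrial biogenesis and transcription, 10 lay below 0 (median -0.039, and -0.079 without saline frog 3). Where 4.03% of all genes lay below 0 at an unadjusted p under 0.05, 1 of the 13 did. That gene was *mterf3.S*, a repressor of mitochondrial transcription in mammals, at 8.22, 8.31 and 8.28 in the leptin frogs and 8.58, 8.73 and 8.54 in the saline frogs. All leptin frogs lay below all saline frogs, with a difference of -0.34 (SE 0.077) and a limma adjusted p of 0.809 over all genes. *prkaa1.L*, a catalytic subunit of the energy sensor AMPK, had a difference of -0.13 (SE 0.073) without overlap. Saline frog 3 was the highest frog for 0 of these 13 genes.

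Markers of cell types that the block could hold were also compared, and 0 passed an adjusted p of 0.05 with limma over all genes. Astrocyte and radial glia markers (7 measured) averaged 10.87 to 10.97 in leptin frogs and 10.98 to 11.08 in saline frogs. They shared no direction, with 4 above 0 and 3 below, from -0.41 for *slc1a3.L* to 0.14 for *fabp7.L*, the latter picked with its values known. At an unadjusted p under 0.05, 2 of the 7 lay below 0, *slc1a3.L* and *glul.S* (-0.40, SE 0.15), where 4.03% of all genes did. The neuron, endothelium and pituitary lists each had 1 marker above 0 at that threshold, where 1.75% of all genes did. Of 9 neuron markers, 7 lay above 0 (median 0.12), where 44.9% of all genes did. Oligodendrocyte markers (4 measured) averaged 8.72 to 9.18 in leptin frogs and 8.25 to 9.07 in saline frogs, and all 4 lay above 0 (median 0.31). Erythrocyte markers (8 measured) averaged 10.47 to 10.61 in leptin frogs and 10.24 to 10.91 in saline frogs, with 4 above 0 and 4 below. Endothelium and pericyte markers (6 measured) averaged 8.54 to 8.78 in leptin frogs and 8.46 to 8.61 in saline frogs, and all 6 lay above 0 (median 0.11). Choroid plexus and ependyma markers (7 measured) averaged 8.35 to 9.04 in leptin frogs and 8.23 to 9.16 in saline frogs, with 3 above 0 and 4 below. Saline frog 3 was not the highest frog for the neuron list, at 11.42 beside 11.56 in leptin frog 6, which had the highest. It was the highest for the choroid plexus and ependyma list, at 9.16 beside 9.04 in leptin frog 6. Of those 7 markers, 2 had their highest value in saline frog 3. Of the muscle markers, *acta1.S*, skeletal alpha-actin, was at 7.30, 7.16 and 6.67 in the leptin frogs and 7.92, 7.32 and 10.90 in the saline frogs. The sarcoplasmic calcium pump *atp2a1.S* did not follow, at 10.40, 10.41 and 10.41 in the leptin frogs and 10.37, 10.30 and 10.25 in the saline frogs. Both of these markers were picked with their values known.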

How the data were processed

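The authors deposited processed array data on a log2 scale, with a signal for every probe set in each frog. RMA, affy and limma stand in the submitters' processing notes with no role or version. Arrays have no sequencing depth, and 3 arrays per group limit the precision.

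The deposited values were used without further normalization. Without 96 AFFX controls, there were 32539 probe sets. Symbols came from the array annotation: 15495 probe sets had 1 symbol, 279 several and 16765 none, and the last 2 kinds were tested but not named. RefSeq changed 0 of the 101 symbols used, and no coordinates or sequences are given. Of several single-symbol probe sets, the one highest on average stood for the gene (9271 genes). The groups were compared with lmFit and eBayes (limma 3.58.1, R 4.3.3), two-sided, with Benjamini-Hochberg adjustment over all genes, and separately over all probe sets. SE is limma's moderated standard error. The steps were tested on simulated data, where estimates averaged close to the changes set. Errors there were drawn independently for each gene, so a shift shared by many genes of a frog was not simulated. No score over the respiratory chain genes was tested.

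Members and lists were chosen with earlier results of these data known. Named genes were *uqcrfs1*, up to 4 with the smallest p in complexes I, III, IV and V, all of complex II, 3 of the other genes, the brightest and dimmest of each complex, measured tissue isoforms, and up to 2 per other list. Alternatives covered scaling, dim probe sets, the gene's probe set, variance moderation, array weights, covariates and leaving out frogs.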

Additional observations from a re-analysis of the deposited data

How the results depend on the processing

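No gene of the chain passed an adjusted p of 0.05 under any of 19 alternatives, 17 of them planned and 2, which left out 2 frogs, chosen after seeing the data. The smallest adjusted p over them was 0.564. Of 648 recomputed differences of 36 named genes, 588 kept their sign and 60 turned it; the cause was not tested. With array median centring there were 0 genes below 0 at an unadjusted p under 0.05, 0 genes with leptin frogs entirely above (4.29% of all genes), 2 genes with leptin frogs entirely below (7.93% of all genes) and differences turned for *sdha* (0.0076). With array weights there were 2 genes below 0 at an unadjusted p under 0.05 and differences turned for *ndufs3* (0.0089), *sdha* (0.0070). With cyclic loess there were 3 genes with leptin frogs entirely above (5.37% of all genes), 3 genes with leptin frogs entirely below (8.13% of all genes) and differences turned for *sdha* (0.014). With quantile normalization there were 2 genes with leptin frogs entirely above (5.13% of all genes), 4 genes with leptin frogs entirely below (8.37% of all genes), 20 genes above 0 and differences turned for *sdha* (0.029), *uqcrfs1* (0.0014). Averaging the probe sets of each gene, there were 2 genes below 0 at an unadjusted p under 0.05. In that fit leptin frogs lay entirely above for 0 genes (4.19% of all genes) and entirely below for 15 (9.47%). Differences turned there for *ndufs3* (0.0015), *ndufs7* (-0.12), *uqcrc2* (-0.036). With the muscle covariate there were 0 genes below 0 at an unadjusted p under 0.05, 38 genes above 0 and the overall median was 0.030, the median of complex I was 0.032, the median of complex V was 0.033 and differences turned for *atp5f1c* (0.033), *cox7a2l* (0.064), *ndufb5* (0.036), *ndufs3* (0.020), *ndufs8* (0.035), *ndufv1* (0.067), *sdha* (0.039), *uqcrb* (0.0060), *uqcrfs1* (0.052). With the pituitary covariate there were 4 genes below 0 at an unadjusted p under 0.05, 6 genes above 0 and differences turned for *atp5f1b* (-0.0075), *atp5f1d* (-0.086), *ndufb7* (-0.033), *ndufs7* (-0.064), *uqcrc2* (-0.0010). With L and S copies kept apart (84 entries) there were 5 entries below 0 at an unadjusted p under 0.05. Leptin frogs lay entirely below for 21 of these entries (9.91% of all such entries). Without saline frog 3 and leptin frog 6 there were 2 genes below 0 at an unadjusted p under 0.05, 2 genes with leptin frogs entirely above (17.2% of all genes), 22 genes with leptin frogs entirely below (22.2% of all genes), 30 genes above 0 and differences turned for *atp5f1c* (0.0045), *ndufs3* (0.00082), *ndufs8* (0.0029), *ndufv1* (0.0099), *sdha* (0.043), *uqcrfs1* (0.034). Without saline frogs 1 and 3, which leaves 1 saline frog assumed to vary like the others, there were 0 genes below 0 at an unadjusted p under 0.05, 4 genes with leptin frogs entirely above (22.4% of all genes), 21 genes with leptin frogs entirely below (27.3% of all genes) and differences turned for *atp5f1a* (-0.0050), *atp5f1b* (-0.025), *atp5f1d* (-0.011), *cox7a2l* (0.048), *ndufaf2* (0.0094), *ndufb5* (0.022), *ndufb7* (-0.16), *ndufs7* (-0.0082), *ndufv1* (0.023), *sdhb* (-0.060), *uqcrc2* (-0.042), *uqcrfs1* (0.0097). Leaving out 1 frog at a time gave 0 to 3 genes below 0 at an unadjusted p under 0.05 and 6 to 34 genes above 0. In these fits leptin frogs lay entirely above for 1 to 4 genes (7.5% to 9.88% of all genes). They lay entirely below for 11 to 22 genes (14.2% to 19.7% of all genes). The median of complex V ran from -0.10 to 0.025. Differences that turned lay in these ranges: *atp5f1b* -0.012 to 0.053, *atp5f1c* -0.17 to 0.015, *atp5f1d* -0.090 to 0.10, *cox7a2l* -0.12 to 0.031, *ndufb5* -0.15 to 0.00084, *ndufb7* -0.051 to 0.19, *ndufs3* -0.055 to 0.019, *ndufs7* -0.068 to 0.072, *ndufs8* -0.12 to 0.0074, *ndufv1* -0.091 to 0.044, *sdha* -0.050 to 0.030, *uqcrc1* -0.017 to 0.078, *uqcrc2* -0.0074 to 0.083, *uqcrfs1* -0.071 to 0.032. No paired analysis was possible because the groups share no frog number. The share of all genes at an unadjusted p under 0.05 was not computed under these alternatives, so their counts cannot be set against it. The other recomputed medians moved by less than the SD between saline frogs, which saline frog 3 itself widens. For the mean over the 61 genes the SD was 0.036 in leptin frogs and 0.11 in saline frogs. Without saline frog 3 the median over the 61 genes went from -0.063 to 0.011, a move larger than the SD in leptin frogs. Among the recomputed medians, some others also turned sign without saline frog 3, as for complex I (-0.069 to 0.0090) and complex III (-0.024 to 0.038). With no measure of background, the limit that dim signal sets is unknown.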
